A study of Mus musculus with 2 samples.

Results

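The 8 genes described here control the level of polyamines, the small positively charged molecules putrescine, spermidine and spermine. They are the antizyme genes Oaz1 and Oaz2, the antizyme inhibitor gene Azin1, the decarboxylase genes Odc1 and Amd1, the synthase genes Srm and Sms, and the acetyltransferase gene Sat1. They were chosen by name, with their levels in these data already known, so their levels and leading structures are a description with no test. All 8 had counts in both libraries. Of 17859 annotated mouse genes with counts in either, 15526 had counts in replicate 1 and 16344 in replicate 2.

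The samples were gastrocnemius, a calf muscle, from male B6CASTF1/J mice at 4 days of age. These mice are an F1 cross whose label joins B6 and Cast. There was 1 group of 2 biological replicates and no treatment. Long-read RNA sequencing was run on 2 µg of total RNA per library. Each library has a biosample of its own in the labels but both share 1 donor entry. Whether the replicates were 2 mice is thus unknown, and the spread between them may be technical.

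Polyamine synthesis starts when ornithine decarboxylase, the product of Odc1, makes putrescine. Antizyme binds this enzyme and delivers it to the proteasome without ubiquitin, and the product of Azin1, an inactive relative of the enzyme, takes antizyme away from it. The antizyme reading frame is broken by a stop codon: ribosomes make the whole protein only when they skip 1 base there, and polyamines favour that skip. Polyamines also act on splicing and translation of other genes of the pathway, such as the inclusion of a Sat1 exon that carries a stop codon.

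The sequence at which the antizyme frame is broken is shown first, because the annotated intron chains of both genes break there. In both genes it lies in exon 2, printed below from the GENCODE M21 transcripts on mm10, plus strand, 5′ to 3′, with the in-frame stop codon in capitals. Oaz1 exon 2 is chr10:80828237-80828382, coding throughout, and Oaz2 exon 2 is chr9:65686196-65686353, coding throughout.
Oaz1 exon 2: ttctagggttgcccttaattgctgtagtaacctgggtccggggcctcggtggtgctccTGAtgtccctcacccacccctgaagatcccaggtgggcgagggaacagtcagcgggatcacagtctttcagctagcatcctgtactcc
Oaz2 exon 2: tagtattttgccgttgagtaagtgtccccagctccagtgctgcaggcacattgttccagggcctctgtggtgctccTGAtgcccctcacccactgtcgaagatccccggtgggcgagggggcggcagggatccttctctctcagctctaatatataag

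Read from the annotated start codon without a shift, the Oaz1 frame ended at this stop after 68 codons. With the first base of the stop skipped it ran for 227 codons and ended at the annotated stop, chr10:80829002-80829004. The Oaz2 frame ended after 32 codons without a shift. With the same skip it ran for 189 codons to its annotated stop, chr9:65689223-65689225. Aligned on the stop codon with no gaps allowed, the exons matched at 80 of 140 compared bases (57.1%). The unbroken match around the stop was 15 bases long, with 10 bases before it.
Shared run: gtggtgctccTGAtg

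**Figure D1:**
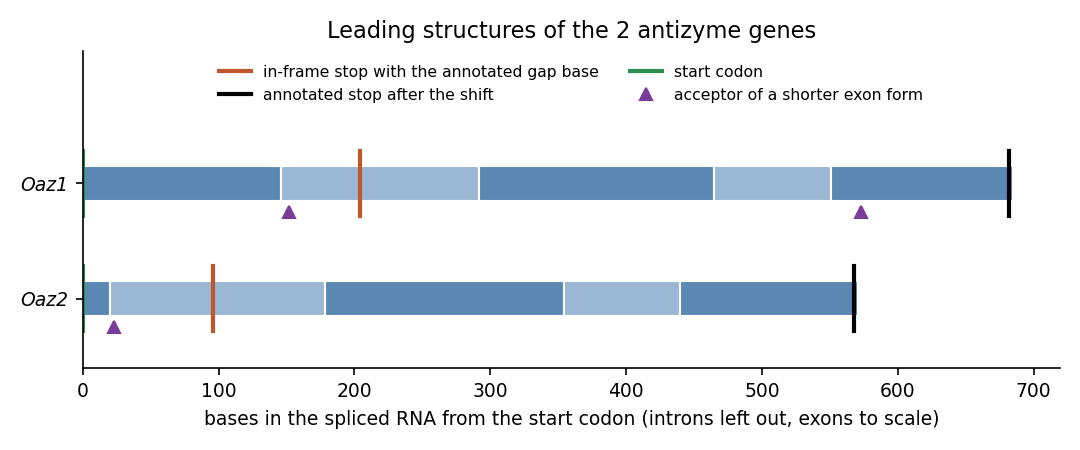
Coding part of the leading Oaz1 and Oaz2 structures, in bases of spliced RNA from the start codon, with introns left out and exons drawn to scale in alternating shades. The in-frame stop falls in exon 2 of both genes, early in the frame, and purple triangles mark the acceptors of shorter exon forms described in the text.

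The annotation writes the skipped base as a gap between exons. The gap is 1 base, chr10:80828295-80828295, in Oaz1-202, Oaz1-203 and Oaz1-207, and 4 bases, chr10:80828292-80828295, in Oaz1-201. In Oaz2-204 and Oaz2-206 it is 1 base, chr9:65686272-65686272, and in Oaz2-201 it is 4 bases, chr9:65686269-65686272. The 1-base gap is the first base of the stop codon in both genes.

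No transcript model in either library carried the gap. That is 0 of 1349 and 0 of 1952 Oaz1 counts in replicates 1 and 2, where 3 counts would be 0.222% and 0.154%. For Oaz2 it is 0 of 551 and 0 of 498 counts, where 3 counts would be 0.544% and 0.602%. The models record introns and ends, so a base missing within a read would not show in them. No model could equal an annotated chain that holds the gap.

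The deposited classes of both antizyme genes differed from those of the other 6. Oaz1 had 1328 and 1915 counts in the class NIC (a new combination of annotated splice sites) in replicates 1 and 2, and 0 and 2 in the class Known (an annotated intron chain). Oaz2 had 515 and 467 NIC counts and 0 and 1 Known counts. Both libraries thus placed nearly all antizyme reads outside the annotation. The 4-intron leading structure of Oaz1 equals Oaz1-201 and Oaz1-207 once the gap is closed, and that of Oaz2 equals Oaz2-201 and Oaz2-206. Over both libraries, 95.9% of Oaz1 counts and 88.8% of Oaz2 counts equalled an annotated chain after closing it.

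**Figure D2:**
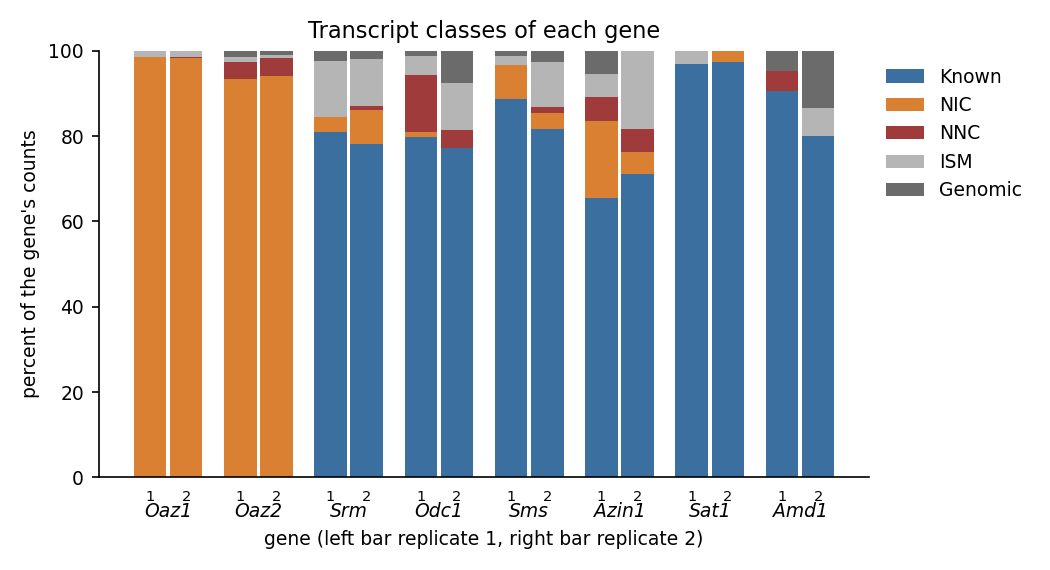
Percent of each gene's counts in the deposited transcript classes, replicate 1 as the left bar and replicate 2 as the right bar, genes ordered by mean level; ISM is part of an annotated intron chain, NNC has an unannotated splice site, and Genomic has no matching splice pattern. Oaz1 and Oaz2 are almost wholly NIC (93.5% to 98.4%), while the other 6 genes are mostly Known (65.5% to 97.4%).

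Among 5351 genes with at least 20 Known, NIC and NNC counts in each library, 95.2% were led by a Known structure, 3.51% by an NIC one and 1.31% by an NNC one. Of the 8 polyamine genes 6 were led by a Known structure. Gaps of at most 10 bases occur in 284 of 141862 annotated transcripts and in 242 of 55536 genes. Of these genes 92 had counts and 17 had at least 20 in each library. Oaz1 and Oaz2 were the 2 among those 17 for which over 50% of counts equalled an annotated chain once the gap was closed. None of the 17 had a count that carried its gap, but here too bases missing within a read would not show in the models.

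Oaz1 (chr10:80826656-80829290, plus strand) was by far the highest of the 8 genes. Levels are CPM of reads, scaled to the sum of all counts on annotated mouse genes and not divided by length. Whether the read counts favour some transcript lengths was not tested. Oaz1 had 1349 and 1952 counts in replicates 1 and 2, or 1351 and 1902 CPM (1626 ± 390 CPM, SD, n = 2). Its mean was the 39th highest of all genes. Next above it was the collagen gene Col1a2 (1695 ± 33.4 CPM). Next below were the respiratory chain subunit gene Cox4i1 (1626 ± 544 CPM) and the imprinted gene Mest (1625 ± 421 CPM). These 3 neighbours were picked for the closeness of their means, which lie within the spread of Oaz1.

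Oaz2 (chr9:65668001-65690300, plus strand), the second antizyme gene, had 551 and 498 counts in replicates 1 and 2, or 552 and 485 CPM (518 ± 47.0 CPM). It was at rank 192. Oaz1 exceeded it 2.45-fold in replicate 1 and 3.92-fold in replicate 2, so the order held in both libraries while its size did not. Both antizyme genes together made up 83.7% of the counts of the 8 genes in replicate 1 and 86.0% in replicate 2. Their summed level was 1903 and 2387 CPM, against 369 and 389 CPM for the other 6 genes.

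Azin1 (chr15:38487427-38519266, minus strand), which encodes the inhibitor of antizyme, had 55 and 76 counts, or 55.1 and 74.1 CPM (64.6 ± 13.4 CPM, rank 2728). Counts of Oaz1 exceeded those of Azin1 by 24.5-fold in replicate 1 and 25.7-fold in replicate 2.

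Odc1 (chr12:17544794-17551505, plus strand), the gene of the enzyme that antizyme binds, had 89 and 92 counts, or 89.1 and 89.6 CPM (89.4 ± 0.372 CPM, rank 1913). The Oaz1 count was 15.2-fold the Odc1 count in replicate 1 and 21.2-fold in replicate 2. Odc1 exceeded Azin1 by 1.62-fold and 1.21-fold.

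Amd1 (chr10:40287458-40302186, minus strand) encodes the S-adenosylmethionine decarboxylase, which makes the aminopropyl donor for spermidine and spermine. It was the lowest of the 8, with 21 and 15 counts, or 21.03 and 14.62 CPM (17.8 ± 4.53 CPM, rank 7060). Odc1 exceeded it by 4.24-fold in replicate 1 and 6.13-fold in replicate 2. Its level depends on near-identical copies, given below.

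Srm (chr4:148591503-148594993, plus strand), the spermidine synthase gene, had 84 and 101 counts, or 84.1 and 98.4 CPM (91.3 ± 10.1 CPM, rank 1868). Sms (chrX:157443855-157492287, minus strand), the spermine synthase gene, had 88 and 76 counts, or 88.1 and 74.1 CPM (81.1 ± 9.94 CPM, rank 2125). Their order differed between the libraries, with a Srm to Sms ratio of 0.955 in replicate 1 and 1.33 in replicate 2. Both together had 172 CPM in each library. Sat1 (chrX:155213132-155216449, minus strand), whose product acetylates spermidine and spermine for export or breakdown, had 32 and 39 counts, or 32.0 and 38.0 CPM (35.0 ± 4.21 CPM, rank 4688).

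By mean level the order was Oaz1, Oaz2, Srm, Odc1, Sms, Azin1, Sat1 and Amd1. The values of the 2 libraries overlapped between Srm and Odc1, and Sms and Azin1 met at 74.1 CPM. The other 5 neighbouring pairs did not overlap. With Known, NIC and NNC transcripts alone, Odc1 (84.1 and 73.1 CPM) and Sms (85.1 and 64.3 CPM) also overlapped, and the mean of Odc1 (78.6 CPM) came just above that of Srm (78.4 CPM). The gap between Odc1 and Sms was 89.1 against 88.1 CPM, which is within the counting error of either gene.

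**Figure D3:**
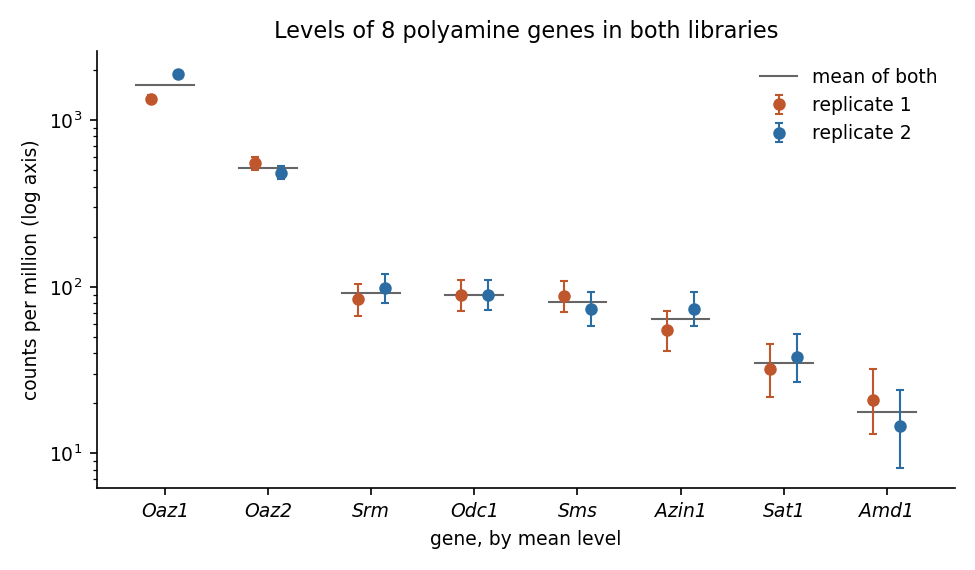
CPM of the 8 genes on a log axis, replicate 1 left and replicate 2 right, with 95% exact Poisson intervals that cover counting error only and a grey line at the mean. Oaz1 at 1351 and 1902 CPM and Oaz2 at 552 and 485 CPM stand above the other 6 genes, which lie between 98.4 and 14.6 CPM.

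The 2 libraries were set against each other with Fisher's exact test on each of 11027 genes with at least 10 counts in sum. This test compares these libraries on counting error and not any condition. Of the 8 genes 1 was lower in replicate 1 and 0 were higher, where 5.25% of all tested genes were lower and 4.49% higher (9.74% in either direction). That gene was Oaz1, with a log2 ratio of replicate 1 over replicate 2 of -0.49 (95% interval -0.59 to -0.39; Fisher's exact test, Benjamini-Hochberg adjusted p = 4.52e-20; prior count 0.5). With a preset biological coefficient of variation of 0.1 in edgeR's exact test it was no longer called (adjusted p = 0.288), nor was it with 0.2. The common coefficient that edgeR estimated between these 2 libraries was 0.212. The other 7 were not called at adjusted p under 0.05. The nearest was Oaz2, higher in replicate 1 by a log2 ratio of 0.19 (95% interval 0.01 to 0.36; Fisher's exact test, unadjusted p = 0.0385, adjusted p = 0.203). The median log2 ratio was -0.12 over the 8 genes and 0.04 over all tested genes.

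Markers of other cell types differed between the libraries to unlike degrees. The summed level of 5 Schwann cell markers was 1449 CPM in replicate 1 and 3479 CPM in replicate 2, and that of 4 fibroblast markers was 35080 and 23095 CPM. Of 5 epidermal markers 1 had counts in replicate 1 (4.01 CPM, with Krt1, Krt14, Krt5 and Lor at 0) and 5 had counts in replicate 2 (847 CPM). Endothelial markers had 332 and 386 CPM in replicates 1 and 2, and macrophage markers 115 and 138 CPM. Erythroid markers had 211 and 338 CPM. Markers of dividing cells had 114 and 167 CPM, and those of satellite cells 162 and 116 CPM. The 8 muscle fibre markers had 152210 and 151044 CPM and were all present in both. The part of these cells in the Oaz1 difference was not tested, and in bulk tissue fewer cells of a type and less RNA per cell cannot be told apart.

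The 4 introns of the leading Oaz1 structure were used almost without exception. It held 1283 of 1329 Known, NIC and NNC counts in replicate 1 (96.5%, 95% interval 95.4 to 97.5%) and 1852 of 1922 in replicate 2 (96.4%, 95.4 to 97.2%). Exact Clopper-Pearson intervals are given, and they cover counting error only. The leading Oaz2 structure held 492 of 536 (91.8%, 89.1 to 94.0%) and 440 of 489 counts (90.0%, 87.0 to 92.5%). The median share of a leading structure over the 5351 genes was 86.5%, with quartiles of 65.7% and 95.2%.

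Minor Oaz1 structures were rare and much alike in both libraries. The structure that differs from the leading one only in a last exon beginning 22 bases further in, at an annotated site, held 20 and 31 counts (1.48% and 1.59% of Oaz1 counts). The bases left out are in capitals in the first 30 bases of that exon, chr10:80828871-80828900.
Oaz1 exon 5 start: CCGCCCTACTCCGAACCTTCAGctttcttg

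With the shift, this form read 190 codons and missed the annotated stop. The structure with the other 3 introns and without the last one, of 74 bases, held 15 and 24 counts (1.11% and 1.23%). Whether its models ran through that intron or ended earlier was not tested. Its frame reads 222 codons if they ran on to the annotated transcript end. The structure that differs only in an exon 2 beginning 6 bases further in held 13 and 13 counts (0.964% and 0.666%), which leaves 225 codons and the annotated stop, as in Oaz1-202 with its gap closed.

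Exon 2 itself, which holds the shift site, was skipped on 7 Oaz1 counts in replicate 1 and 11 in replicate 2. Its inclusion was 1322 of 1329 informative counts (99.5%, 95% interval 98.9 to 99.8%) in replicate 1 and 1911 of 1922 (99.4%, 98.98 to 99.71%) in replicate 2. The skipped form joins exon 1 to exon 3 by an unannotated intron. It has no shift site, and its frame stopped after 52 codons, 246 bases before the last exon junction.

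No Oaz2 model skipped the shift exon, and the most frequent variation lay downstream of it. Exon 4, of 86 bases (chr9:65688821-65688906, coding), was included on 514 of 537 informative counts in replicate 1 (95.7%, 95% interval 93.6 to 97.3%), and on 464 of 490 in replicate 2 (94.7%). The annotation has no intron that skips it. The structure that otherwise equals the leading one had 22 and 25 counts, and with the shift it read 129 codons and did not end at the annotated stop.

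Another Oaz2 structure, which differs only in beginning exon 2 after its first 3 bases, at an unannotated acceptor, held 19 and 18 counts (3.45% and 3.61%). It keeps the frame and reads 188 codons to the annotated stop. The 3 bases left out are in capitals in the first 30 bases of exon 2, chr9:65686196-65686225.
Oaz2 exon 2 start: TAGtattttgccgttgagtaagtgtcccca

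The Oaz2 structure that lacked the last intron alone held 5 and 2 counts. Whether its models ran through that intron or ended earlier was not tested. Its frame reads 182 codons if they ran on to the annotated transcript end. Single-exon models held 8 and 5 Oaz2 counts. With splice sites within 5 bases merged, the leading Oaz2 share was 95.3% in replicate 1 and 93.7% in replicate 2, since the acceptor shift of 3 bases then joins the leading structure.

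**Figure D4:**
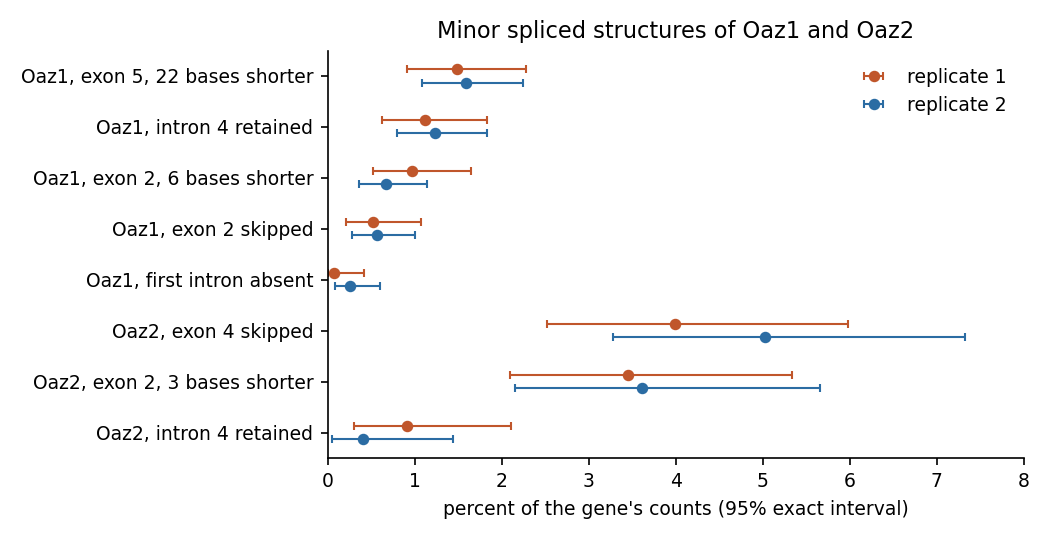
Share of the gene's counts on each minor spliced structure of Oaz1 and Oaz2 with at least 5 counts in either library, in percent with 95% exact intervals, replicate 1 above replicate 2. The intervals of the 2 libraries overlap for every structure, and no structure reaches 8%. Rows labelled intron 4 retained lack that intron, and whether their models ran through it was not tested.

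Among the genes led by a Known structure, Azin1 was the most varied. Its leading structure, Azin1-201, held 29 of 49 counts in replicate 1 (59.2%, 95% interval 44.2 to 73.0%) and 48 of 62 in replicate 2 (77.4%, 65.0 to 87.1%). Its unadjusted p was 0.0612 and its adjusted p 0.927 by Fisher's exact test between the libraries. Over both libraries 28.5% of the 5351 genes had a lower leading share. Its Known, NIC and NNC counts fell on 15 intron chains, of which 4 occurred in both libraries. Once splice sites within 5 bases were merged, the Azin1-201 share was 73.5% in replicate 1 and 80.6% in replicate 2.

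The Azin1 exon of 160 bases that marks Azin1-203 (chr15:38507187-38507346) lies in the 5′ UTR and holds no coding bases. It was included on 9 of 51 informative counts in replicate 1 (17.6%, 95% interval 8.40 to 30.9%) and on 7 of 63 in replicate 2 (11.1%, 4.59 to 21.6%). The intervals overlap (Fisher's exact test, p = 0.418, adjusted p = 1). The frame of 448 codons is the same with and without this exon.

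A structure that differs from Azin1-201 only in an annotated acceptor 3 bases into a coding exon held 5 and 2 counts, with a frame of 447 codons. The annotated 287-base form of a coding exon of 135 bases had 1 count in each library. Single-exon models held 3 and 9 Azin1 counts.

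The regulated exon of Sat1 was rarely included in the RNA counted here. This exon, of 110 bases (chrX:155215121-155215230, minus strand), marks Sat1-207, which the annotation lists as a target of nonsense-mediated decay, the pathway that removes RNAs with an early stop. Its first 30 bases, chrX:155215201-155215230, hold a stop in the Sat1 frame, in capitals.
Sat1 regulated exon: gttacagtctcTAGcttcgccatgtacatg

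It was included on 0 of 31 informative counts in replicate 1, where 3 counts would be 9.68%, and on 2 of 39 in replicate 2 (5.13%, 95% interval 0.627 to 17.3%). The difference was not detectable at this depth (Fisher's exact test, p = 0.499, adjusted p = 1). With the exon the frame stops after 71 codons, 239 bases before the last junction, and without it the frame reads 171 codons. The form without it, Sat1-201, held all 31 Known, NIC and NNC counts of replicate 1, and 36 of the 39 of replicate 2. These shares are of RNA present in the tissue, and how much RNA with the exon had decayed was not tested.

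Odc1-201 held 71 of 84 such counts in replicate 1 (84.5%, 95% interval 74.99 to 91.49%) and 71 of 75 in replicate 2 (94.7%, 86.9 to 98.5%). The intervals overlap (Fisher's exact test, p = 0.0432, adjusted p = 0.855). Once splice sites within 5 bases were merged, the Odc1-201 share was 95.2% in replicate 1 and 97.3% in replicate 2. An unannotated acceptor 3 bases into an exon that holds the Odc1 start codon was used on 7 counts in replicate 1 and 0 of 92 in replicate 2, where 3 counts would be 3.26%. The frame of 461 codons was unchanged by it. Single-exon models held 1 and 7 Odc1 counts, and a chain with the last intron alone held 1 and 5.

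Srm-201 held 95.8% of 71 such counts in replicate 1, and its share of 88 in replicate 2 was 89.8%. A coding Srm exon of 93 bases (chr4:148592482-148592574) was included on 97.3% of informative counts in replicate 1 and 94.4% in replicate 2. Skipping it, by an unannotated intron, keeps the frame and leaves 271 of 302 codons. Sms-201 held 78 of 85 counts (91.8%) and 61 of 66 counts (92.4%), and Amd1-201 held 18 of 20 and 12 of 12.

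Across all genes 24 of 5351 leading shares (0.449%) and 5 of 51384 internal exons (0.00973%) differed between the libraries at adjusted p under 0.05. None belonged to the 7 polyamine genes tested for leading share, and Amd1 had too few counts for that test. Amd1 likewise had no exon with enough counts to test, and no tested exon of the other 7 genes was called. The 5 acceptor shifts named here, in Oaz1, Oaz2, Odc1 and Azin1, all made an exon shorter by bases that end in AG.

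**Figure D5:**
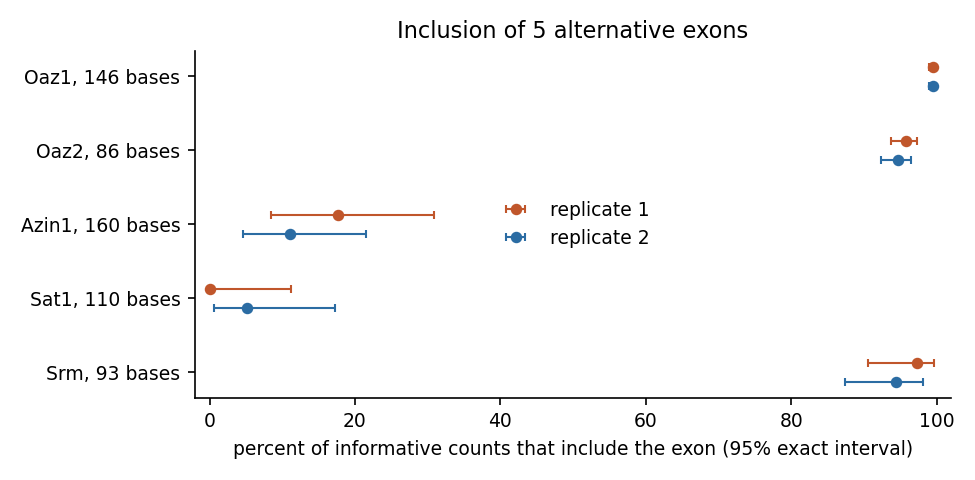
Inclusion of 5 alternative exons in percent of informative counts, with 95% exact intervals, replicate 1 above replicate 2. The exons of Oaz1, Oaz2 and Srm are included on over 94% of counts, and those of Azin1 and Sat1 on under 18%, with overlapping intervals in every case.

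Several of the 8 genes have processed copies, and counts on these can be split from the parent gene. A copy here is a gene whose transcript aligns in the same orientation to a member over at least 50% of its length at 80% identity or more. Oaz1-ps (chr17:17345456-17346140), a single-exon pseudogene of 685 bases, is 99.7% identical to Oaz1. It held 71 and 104 counts, which is 5.0% and 5.1% of Oaz1 and its copies, the same share in both libraries.

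For Amd1 the copies held about as many counts as the gene. Amd2 (chr10:35708675-35711892), a single-exon gene 99.6% identical to Amd1, had 24 and 10 counts, and the pseudogene Amd-ps3 had 7 and 2. Together they held 59.6% of the summed counts in replicate 1 and 44.4% in replicate 2. The sum came to 52.1 and 26.3 CPM (39.2 ± 18.2 CPM), which is higher than Sat1 in replicate 1 and lower than Sat1 in replicate 2. Reads on Amd1 itself were mostly spliced across its 7 introns, but how single-exon reads were divided among the copies was not tested. With the copies added, which was chosen after seeing the data, the log2 ratio of replicate 1 over replicate 2 was 0.97 (Fisher's exact test, adjusted p = 0.0383), whereas Amd1 alone was not called (log2 ratio 0.51, adjusted p = 0.648).

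The copies of the other genes held few counts or none. Odc1 has 21 copies, of which 3 had counts (3 and 1 in all). AW146154, which aligns to Odc1 in the opposite orientation, had 5 and 4 counts and was not added. The copies of Oaz2, Sat1, Srm and Sms had 0 counts in both libraries, and Azin1 had no copy by this definition.

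A list of 39 other genes was made for polyamine synthesis, breakdown, transport and use. It also holds genes of wider or other function, such as Psmd4, Myc and Dpys. Of the 39 genes, 36 had counts and 30 were tested between the libraries. In replicate 1, 1 was higher and 1 was lower, against 4.49% and 5.25% of all genes, and 28 were not called. Eif5a, whose product carries hypusine made from spermidine, was the highest of the list (803 ± 157 CPM). It had 691 and 938 counts, lower in replicate 1 by a log2 ratio of -0.40 (Fisher's exact test, adjusted p = 1.58e-06). Mat2a, which makes the S-adenosylmethionine used by Amd1, was next (458 ± 105 CPM). It had 531 and 394 counts, higher in replicate 1 by a log2 ratio of 0.47 (Fisher's exact test, adjusted p = 4.00e-05). Both lost the call with the preset coefficient of variation of 0.1 (adjusted p = 0.486 and 0.394).

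After these came Cav1, a caveolin (421 ± 0.960 CPM), the proteasome subunit gene Psmd4 (248 ± 15.5 CPM) and Mat2b (131 ± 0.970 CPM), the partner of Mat2a. Atp13a4 and Satl1 were lowest, with 0 counts in replicate 1 and 1 in replicate 2. Oaz3, the antizyme gene of the testis, Arg2 and Dpys had no count in either library. The median log2 ratio of the 30 tested genes was -0.20.

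Replicate 1 held 1066347 counts and replicate 2 held 1100253, of which 93.7% and 93.3% fell on annotated mouse genes. At this depth a gene with the level of Amd1 rests on 21 and 15 counts, so only large differences in its structures could have been seen.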

How the data were processed

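Long-read RNA was measured in 2 libraries of 1 group. The authors deposited, per the file headers, a raw count of reads for each transcript model of each library, with columns in TALON format, and a paired annotation of the models with exon coordinates on mm10 and GENCODE M21. The aligner is not given in the sources used here. Spike-ins (2.47% and 1.37% of all counts) and unannotated loci (3.88% and 5.36%) stayed out of library sizes. Each gene's counts, over all classes together, were divided by counts on annotated mouse genes (998659 and 1026257). Intron chains were matched between libraries by coordinates. Fisher's exact tests between the libraries were adjusted over all genes, structures or exons tested, with at least 10 counts in sum for genes and 20 in each library for structures and exons, in Python 3.11.15 with scipy 1.17.1. The tests were checked on data simulated with counting error alone, so that check does not cover further spread between libraries. Copies were found with blastn 2.17.0. Sequences come from GENCODE M21 transcripts. Scalings by edgeR 4.0.16 (TMM) and DESeq2 1.42.0, other count minimums, classes and tolerances, and each replicate on its own were alternatives. The 8 genes, the lists and the rule for named genes (the 8 genes, their structures with 5 or more counts, the highest, lowest, absent and called list genes, the neighbours of Oaz1 and copies) were chosen with earlier results of these data known. Of the neighbours of Oaz1, 1 is not reported here.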

Additional observations from a re-analysis of the deposited data

Results flagged for a closer look

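Unannotated loci on the strand opposite Azin1 held 8 counts in replicate 1 and 12 in replicate 2, above the 3 counts that a count of 0 allows in each library. Of these, 8 and 11 were on a single-exon locus at chr15:38510736-38514609 that overlaps 137 exonic bases of the leading Azin1 structure. These counts belong to no measurement in the comparisons above, and their source was not tested.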

How the results depend on the processing

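No paired analysis was possible because the libraries form 1 group. With preset coefficients of variation of 0.1 and 0.2 in edgeR's exact test, the genes called between the libraries numbered 172 and 56 instead of 1074, with 47 and 5 higher and 125 and 51 lower in replicate 1. Oaz1 was then not called at either value (adjusted p = 0.288 and 1), with its log2 ratio unchanged at -0.49. It stayed called and lower in replicate 1 under every other setting tried for that comparison, TMM and DESeq2 size factors included. With ISM counts in the denominator, 79 leading shares were called instead of 24. With Known, NIC and NNC transcripts alone, 9 exons were called instead of 5. Closing annotated gaps, chosen after seeing the data, moved the counts on an annotated structure to 96.0% for Oaz1 and 88.9% for Oaz2 (means of both libraries), since no model carries the gap. Odc1 changed sign, never called, to log2 ratios of 0.20 with Known, NIC and NNC transcripts alone and 0.024 with copies added. The summed level of the 8 genes was 2776 CPM without replicate 1 and 2272 CPM without replicate 2. The counts of Amd1, Sat1 and Azin1 limit what can be said of their structures.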

Other observations

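Loci on the opposite strand also overlapped exons of Sms (3 and 7 counts in replicates 1 and 2), Sat1 (1 and 3), Amd1 (0 and 3) and Oaz2 (1 and 0). No model of another gene identifier lay on the same strand over any of the 8 leading structures. Among the 17 genes with an annotated gap of at most 10 bases and at least 20 counts in each library, Nadk2 came next after the antizyme genes, with 44.7% of its counts equal to an annotated chain once the gap was closed.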
